A study of Mus musculus with 3 samples.

Results

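The 8 genes described here encode parts of 3 peptide signalling systems of the vessel wall and heart: the endothelin receptors Ednra and Ednrb and the endothelin-converting enzyme Ece1, the C-type natriuretic peptide precursor Nppc with the natriuretic peptide receptors Npr1, Npr2 and Npr3, and the neurotensin precursor Nts. They were chosen by name, as 8 of the 36167 features of the deposited tables, after their levels across cell classes and endothelial subsets were known from earlier work on the same nuclei. Those levels are therefore given as a description with no test, and tests are kept to other genes of the pathways, to the sex of the nuclei and to the cell cycle. Nuclear RNA was measured in aortic valve structures of mouse pups at postnatal day 1, in 3 pools of flash-frozen tissue that form 1 group. Each pool held 22 to 24 aortic roots. All pools carry the strain label B6.Cg-Scx<tm1.1(EGFP)Skom, an EGFP allele of the scleraxis gene Scx, and neither zygosity nor the sex of the pups is given. The labels do not say what else separates the pools, so every p-value measures only the spread between these 3 pools.

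Endothelins are short peptides that constrict vessels and steer migrating neural crest cells. Endothelin-converting enzyme cuts the inactive precursor to the active peptide, which then acts on G protein-coupled receptors of the A type on smooth muscle or the B type on endothelium, melanocytes and other cells. Natriuretic peptides relax vessels: the A-type and B-type peptides of heart muscle act on Npr1 and the C-type peptide of endothelium acts on Npr2, both of which make cyclic GMP, while Npr3 clears the peptides. Neurotensin is a neuropeptide and gut hormone that proprotein convertases cut from its precursor.

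The levels of Nppc, Nts and Ednrb differed most between endothelial subsets, so the 250 bases before the start of these 3 genes are shown. They were read from the RefSeq promoter table of build GRCm38.p6, 5′ to 3′ on the gene's strand, with matches to the searched motifs in capitals. The windows are chr1:86670574-86670823 on the minus strand for Nppc, chr10:102490419-102490668 on the minus strand for Nts and chr14:103843702-103843951 on the minus strand for Ednrb. The counts themselves carry no coordinates.
Nppc: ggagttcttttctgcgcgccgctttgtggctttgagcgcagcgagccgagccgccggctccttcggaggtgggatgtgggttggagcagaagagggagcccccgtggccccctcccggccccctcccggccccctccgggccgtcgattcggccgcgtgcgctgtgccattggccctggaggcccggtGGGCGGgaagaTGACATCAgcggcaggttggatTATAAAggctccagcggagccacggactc
Nts: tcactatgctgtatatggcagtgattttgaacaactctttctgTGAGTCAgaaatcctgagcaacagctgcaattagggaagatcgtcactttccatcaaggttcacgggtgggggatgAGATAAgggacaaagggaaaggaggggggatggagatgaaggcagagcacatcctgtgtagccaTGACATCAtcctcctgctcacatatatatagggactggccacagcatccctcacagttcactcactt
Ednrb: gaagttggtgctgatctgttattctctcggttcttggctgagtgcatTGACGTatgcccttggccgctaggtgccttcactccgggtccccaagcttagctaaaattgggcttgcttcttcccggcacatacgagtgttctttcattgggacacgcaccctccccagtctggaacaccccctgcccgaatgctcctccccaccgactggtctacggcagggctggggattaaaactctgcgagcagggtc
All 8 genes matched the table, and 7 motifs were searched on both strands. They were the TATA box core TATAAA, the cyclic AMP response element TGACGTCA, its variant TGACATCA, its shorter core TGACGT (contained in the full element), the AP-1 element TGAGTCA, the GATA element AGATAA and the GC box core GGGCGG. TGACATCA was added to the search after the sequences had been seen. The Nppc window held GGGCGG at 62 to 57 bases before the start, TGACATCA at 51 to 44 and TATAAA at 29 to 24. The Nts window held TGAGTCA at 207 to 201 bases before the start, AGATAA at 131 to 126 and TGACATCA at 67 to 60. The Ednrb window held TGACGT alone, at 203 to 198 bases before the start. Among 32536 windows of this length, TGACATCA was present in 2.84%, TATAAA in 12.3%, TGAGTCA in 4.45%, AGATAA in 9.97%, TGACGT in 6.50% and GGGCGG in 33.0%. The windows differed in composition: GC content was 69.2% in Nppc, 56.8% in Ednrb and 48.0% in Nts, against a median of 52.4%. A match is a run of letters and not a measured binding site.

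The 3 pools held 21140 deposited nuclei and 96513814 unique molecular identifiers (UMIs), of which 13130 nuclei were analysed, with a median of 4119.5 UMIs. Between 14.1% and 41.8% of the nuclei of a pool had over 5% mitochondrial UMIs and were left out. Pairs of pools shared 44 to 99 barcodes. Classes were rebuilt from marker genes, with the 8 genes and the other pathway genes kept out of the clustering, and 9 classes had enough nuclei in every pool. A further 1407 nuclei lay in 3 clusters that stayed unnamed and are not compared. Among these, a Mylk4 Col19a1 cluster of 278 nuclei held 1049 Ednra UMIs, at 148 CPM. The endothelial-like class, of 2740 nuclei, had all of its 12 markers present, at a summed 7255 to 7543 CPM in each pool. The lymphatic endothelial-like class had only 119 nuclei. In its pool 3 sum, erythroid markers reached 24397 CPM against 272 and 503 CPM in pools 1 and 2, and the part of this RNA in the lymphatic values was not tested.

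The first question was which cell classes carry each gene. Levels are in CPM, the gene's UMIs scaled to the total UMIs summed over the nuclei of 1 class in 1 pool, given for pools 1, 2 and 3 in that order and then as mean and SD over the 3 pools. Ednrb, Ece1, Nppc and Npr1 had their highest mean in the endothelial-like class, Npr3 in the mesothelial-like class, Nts in the lymphatic endothelial-like class, Ednra in the pericyte-like class and Npr2 in the valve interstitial-like class. Of all 22427 genes with at least 10 UMIs, 7.44% had their highest mean in the endothelial-like class. These 8 genes were chosen with such levels known, so the count of 4 is a description. It was 2 to 3 without 1 of the pools, lowest without pool 3.

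Nppc, the precursor of C-type natriuretic peptide, was found mostly in endothelial-like nuclei, which held 265 of its 294 analysed UMIs, or 90.1%, and 20.9% of all UMIs. Its level there was 16.2, 26.0 and 11.2 CPM (17.8 ± 7.53, n = 3 pools). The other 8 classes had means of at most 1.09 CPM. Pericyte-like nuclei had no Nppc UMI in any pool, which allows levels of up to 11.4, 13.4 and 15.7 CPM from 3 counts, limits that lie below the endothelial-like level in pools 1 and 2 and above it in pool 3. Limits and intervals cover counting error only. The nuclei left out for their mitochondrial share held 45.4% of all Nppc UMIs.

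Nts, the neurotensin precursor, was present in both endothelial classes. It stood at 364, 236 and 186 CPM in lymphatic endothelial-like nuclei (262 ± 91.5) and at 57.3, 62.4 and 61.3 CPM in endothelial-like nuclei (60.3 ± 2.65). The lymphatic values were higher in every pool and varied between pools far more than the endothelial ones. Because the lymphatic class is small, it nonetheless held only 17.1% of the Nts UMIs, against 68.0% in the endothelial-like class. No other class had a mean above 4.59 CPM.

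Ece1, the enzyme that makes active endothelin, was at 463, 490 and 441 CPM in endothelial-like nuclei (465 ± 24.5) and at 531, 452 and 253 CPM in lymphatic endothelial-like nuclei (412 ± 143). These ranges overlap, so the order of the 2 endothelial classes is not settled by the pools. Every other class was lower in every pool, from 88.2 CPM on average in mesothelial-like to 7.23 CPM in cardiomyocyte-like nuclei. Endothelial-like nuclei held 71.6% of the Ece1 UMIs.

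Ednra, the type A endothelin receptor, had nearly the reverse distribution, with 2.12% of its 8837 analysed UMIs in endothelial-like nuclei. It was highest in pericyte-like nuclei, at 476, 335 and 434 CPM (415 ± 72.4). Cardiomyocyte-like nuclei had 239, 242 and 263 CPM (248 ± 12.8), smooth muscle-like nuclei 178, 163 and 218 CPM, and fibroblast-like nuclei 157, 133 and 126 CPM. The pools of these 4 classes did not overlap between neighbours in this order. With at least 2000 UMIs per nucleus and new clusters, the pericyte-like level was 265 CPM. Valve interstitial-like nuclei had 88.4, 48.6 and 60.1 CPM, endothelial-like nuclei 13.04, 11.7 and 14.1 CPM, and mesothelial-like nuclei a mean of 2.09 CPM. The macrophage-like mean of 82.3 CPM was 51.1 CPM without pool 3.

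Ednra also varied between clusters of 1 class. Among smooth muscle-like clusters, named by their leading genes, Clca3a2 Pi15 had 291, 260 and 320 CPM and Ptprz1 Mylk4 had 118, 91.5 and 150 CPM, with no overlap. Among fibroblast-like clusters, Tmeff2 Fgf10 had 265, 336 and 289 CPM, above the class level in each pool. The valve interstitial-like clusters were at 179, 89.2 and 100 CPM in Abi3bp Ctnna2 and at 52.3, 30.5 and 46.7 CPM in Rmst Pcdh15. The smooth muscle-like and valve interstitial-like classes thus each held 1 cluster with a mean over 2 times that of another.

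Ednrb, the type B receptor, was at 73.1, 106 and 79.0 CPM in endothelial-like nuclei (86.1 ± 17.7). Lymphatic endothelial-like nuclei had 151, 80.8 and 19.96 CPM (83.8 ± 65.4) and macrophage-like nuclei 37.2, 128 and 60.7 CPM (75.3 ± 47.0). The ranges of the 3 classes overlap. The lymphatic mean was 50.4 CPM without pool 1 and the macrophage mean 49.0 CPM without pool 2, so in both classes 1 pool carries much of the level. All remaining compared classes had means of at most 16.4 CPM, and a melanocyte-like group of 70 nuclei, too small to compare, had 421 CPM. Endothelial-like nuclei held 66.3% of the 1852 Ednrb UMIs.

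Npr1, the receptor for the A-type and B-type natriuretic peptides, fell off gradually between classes. It was at 97.8, 83.6 and 78.3 CPM in endothelial-like nuclei (86.6 ± 10.1), followed by 68.8, 65.8 and 59.9 CPM in lymphatic endothelial-like and 49.5, 46.7 and 55.0 CPM in mesothelial-like nuclei, with no overlap between these 3. Smooth muscle-like nuclei had 49.5, 37.6 and 26.2 CPM, and within them Npr1 was at 67.5, 56.9 and 40.3 CPM in the Ptprz1 Mylk4 cluster against 24.3, 20.2 and 13.7 CPM in the Clca3a2 Pi15 cluster. Cardiomyocyte-like nuclei had the lowest mean, at 1.79 CPM.

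Npr2, the receptor for the C-type peptide, was the most evenly spread of the 8 genes. Valve interstitial-like nuclei had 49.6, 52.1 and 34.9 CPM (45.5 ± 9.30), smooth muscle-like nuclei 46.0, 39.9 and 34.1 CPM, fibroblast-like nuclei 41.7, 39.4 and 34.3 CPM, lymphatic endothelial-like nuclei 29.5, 26.9 and 46.6 CPM and endothelial-like nuclei 33.8, 28.5 and 27.1 CPM. Neighbours among these 5 overlapped, while endothelial-like nuclei lay below fibroblast-like nuclei in every pool. The lowest mean, 12.7 CPM, was in mesothelial-like nuclei.

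Npr3, the clearance receptor, had 2 separate high classes. Mesothelial-like nuclei were at 393, 410 and 488 CPM (430 ± 50.5) and endothelial-like nuclei at 298, 297 and 367 CPM (321 ± 39.8), with no overlap between them. The next class, macrophage-like nuclei, averaged 55.0 CPM, and 30.7 CPM without pool 3. Lymphatic endothelial-like nuclei averaged 24.6 CPM, and 9.93 CPM without pool 2, so the class with high Nts and Ece1 had little Npr3.

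**Figure D1:**
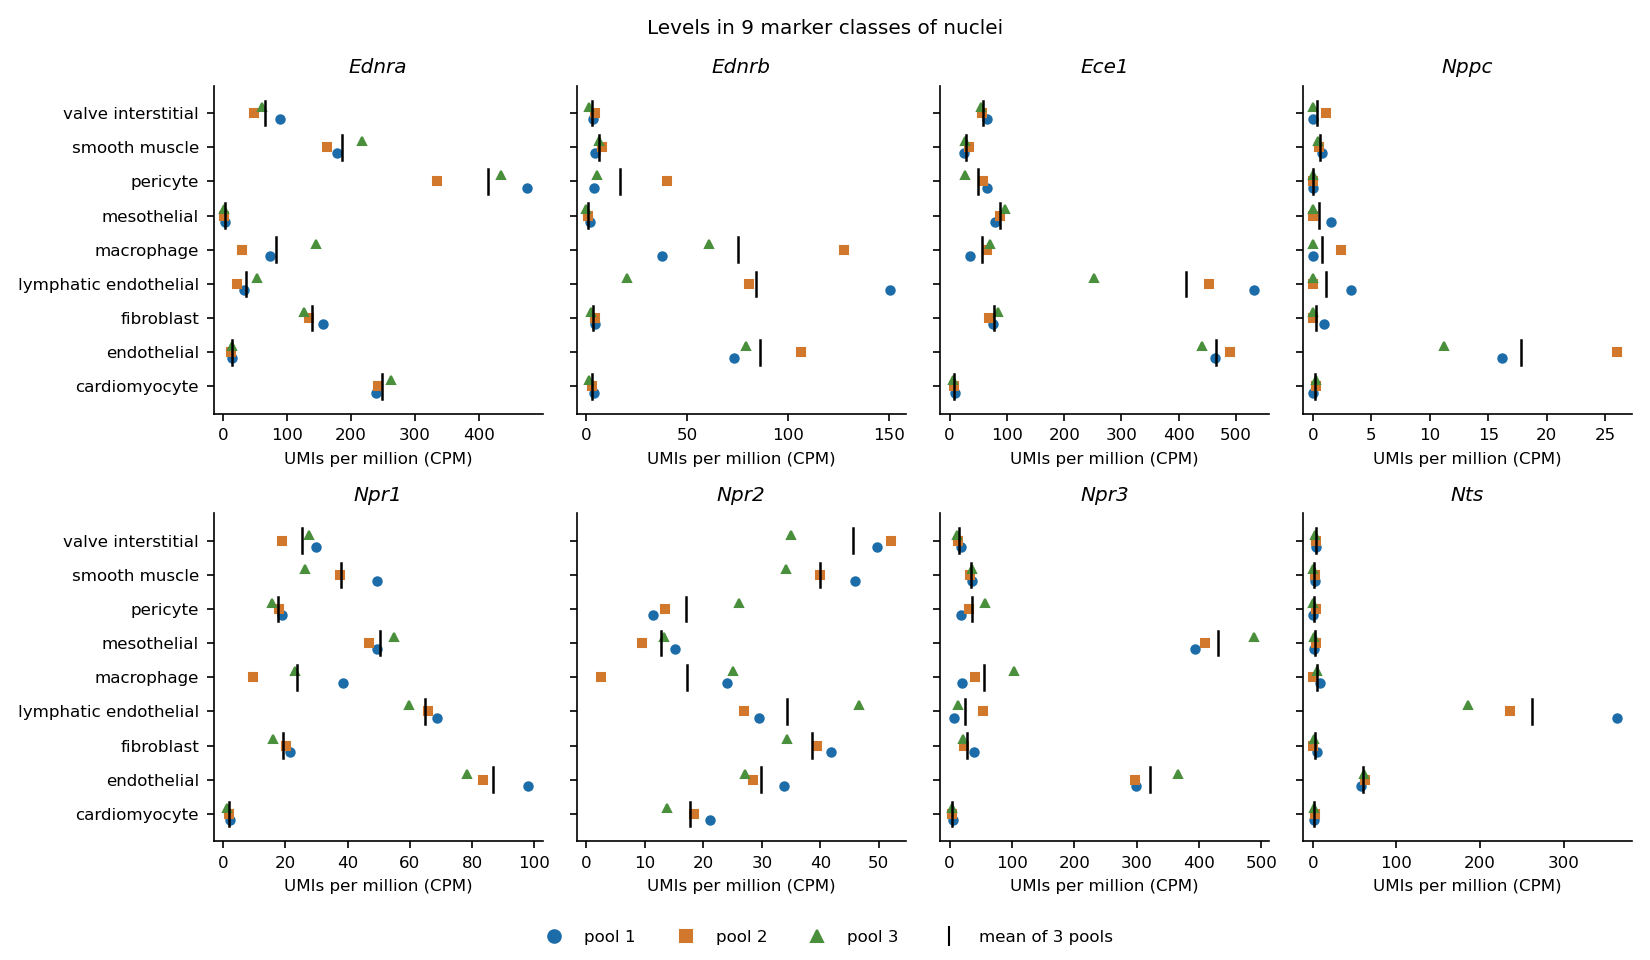
Levels of the 8 genes (x axes, CPM) in 9 classes of nuclei (y axis), with 1 marker per pool and a bar at the mean of the 3 pools. Ednra is low in endothelial-like nuclei, at 11.7 to 14.1 CPM, where Ece1 stands at 441 to 490 CPM, and Nppc has no class other than endothelial-like with a mean above 1.09 CPM.

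Free RNA in droplets can place a UMI in a nucleus that does not express the gene, so shares of nuclei were read at 1000 UMIs per nucleus beside a class low in that gene. Ece1 was detected in 33.6% of endothelial-like nuclei but in 0.52% in the cardiomyocyte-like class, whose median depths were 4453 and 5380 UMIs. Without thinning these shares were 71.6% and 4.03%. An Ednra UMI was found in 29.5% of pericyte-like and 18.4% of cardiomyocyte-like nuclei and in none of the mesothelial-like nuclei, where the share without thinning was 1.79% at a median depth of 9917 UMIs. For Npr3 the shares were 25.1%, 16.3% and 0.38% in mesothelial-like, endothelial-like and cardiomyocyte-like nuclei. For Nts they were 16.5%, 2.69% and 0.32% in lymphatic endothelial-like, endothelial-like and cardiomyocyte-like nuclei. For Ednrb they were 8.72%, 4.48% and 0.17% in macrophage-like, endothelial-like and cardiomyocyte-like nuclei, and for Npr1 9.09% and 0.04% in the last 2 classes. An Nppc UMI was found in only 0.50% of endothelial-like nuclei and in none of the 2401 cardiomyocyte-like nuclei, and 2.18% and 0.10% without thinning.

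The endothelial-like class was divided into 7 clusters, of which 6 had enough nuclei in each pool and are named here by their 2 leading genes. The members did not take part in the clustering. Ednrb, Nppc, Nts and Npr3 had their highest mean in the Kcnc2 Fam155a subset of 440 nuclei, against 15.6% of all 17212 genes with at least 10 UMIs that were highest there. This subset had a median mitochondrial share of 2.87%, against 0.784% to 2.60% in the other subsets, and the part of this in the levels was not tested. Its melanocyte markers, a list for another cell type that expresses Ednrb, summed to 90.9 to 122 CPM. The same list summed to 597 to 688 CPM in cardiomyocyte-like nuclei, where Ednrb averaged 2.52 CPM, so the sum does not measure melanocyte RNA alone. The part of melanocyte RNA in the Ednrb level of the subset was not tested.

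Nppc was at 77.8, 121 and 49.7 CPM in the Kcnc2 Fam155a subset and at a mean of 3.60 CPM or less in each of the other 5. The subset held 233 of the 265 endothelial-like Nppc UMIs, or 87.9%, in 440 of 2740 nuclei. Its mean of 82.9 ± 35.9 CPM was 36.7 times the 2.26 ± 1.34 CPM of all other endothelial-like nuclei, which had 32 UMIs in all. With a mitochondrial limit of 10%, an alternative added after the data were seen, the other nuclei had 9.65 CPM and the Kcnc2 Fam155a nuclei 63.7 CPM.

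Nts stood at 245, 247 and 230 CPM in the Kcnc2 Fam155a subset (241 ± 9.35), the smallest relative spread between pools among the high values of that subset. It followed at 72.5, 65.4 and 65.6 CPM in Pcdh17 Aplnr nuclei and 31.9 CPM on average in Dlgap2 Cntnap5a nuclei, with no overlap between these 3. Lymphatic endothelial markers summed to 1802 to 1889 CPM in Dlgap2 Cntnap5a nuclei, against 19.8 to 395 CPM in the other subsets and 5975 to 8576 CPM in the lymphatic endothelial-like class, and their part in this level was not tested. The remaining subsets had means of 7.47 CPM or less. The mean of the Kcnc2 Fam155a subset was 13.9 times that of all other endothelial-like nuclei, 17.3 ± 1.48 CPM. With the mitochondrial limit at 10% these values were 214 and 30.9 CPM.

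Ednrb had the same first 3 subsets. It was at 268, 422 and 245 CPM in Kcnc2 Fam155a nuclei (312 ± 96.2), at 128, 155 and 134 CPM in Pcdh17 Aplnr nuclei (139 ± 14.3) and at 53.2, 20.7 and 41.1 CPM in Dlgap2 Cntnap5a nuclei. Grid1 Col23a1 and Rtl4 Cytl1 nuclei, the 2 largest subsets, had only 11.8 and 8.02 CPM. The Kcnc2 Fam155a subset held 69.3% of the endothelial-like Ednrb UMIs at 9.79 times the mean of the rest.

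Npr3 divided the subsets differently. Kcnc2 Fam155a nuclei had 447, 531 and 684 CPM (554 ± 120) and Grid1 Col23a1 nuclei 597, 397 and 598 CPM (530 ± 116), which overlap, followed by 243, 279 and 274 CPM in Rtl4 Cytl1 nuclei. Dlgap2 Cntnap5a, Mannr Ptchd1 and Pcdh17 Aplnr nuclei had means of 38.5, 37.9 and 20.6 CPM. The Pcdh17 Aplnr subset, next after Kcnc2 Fam155a for Ednrb and Nts, was thus the lowest for Npr3.

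Ece1 was present in all 6 subsets. It was at 690, 754 and 601 CPM in Grid1 Col23a1 and at 694, 553 and 611 CPM in Kcnc2 Fam155a nuclei, which overlap, and at 178 and 163 CPM on average in Pcdh17 Aplnr and Mannr Ptchd1 nuclei. Npr1 ranged from 117, 115 and 107 CPM in Rtl4 Cytl1 nuclei to 29.5, 14.8 and 35.9 CPM in Dlgap2 Cntnap5a nuclei, and its mean in the Kcnc2 Fam155a subset, 86.8 CPM, was 1.00 times that of the rest. Npr2 lay between 18.6 and 41.4 CPM on average, with neighbouring subsets overlapping. Ednra was low in every endothelial-like subset. Its highest mean was in Pcdh17 Aplnr nuclei, at 51.8, 13.6 and 24.6 CPM, but without pool 1 this mean was 19.1 CPM, below the 24.0 CPM of Mannr Ptchd1 nuclei. Smooth muscle markers summed to 1064, 681 and 689 CPM in Pcdh17 Aplnr nuclei, against 238 to 652 CPM in the other subsets, and cardiomyocyte markers to 2135 to 3073 CPM against 512 to 2069 CPM, and their part in the Ednra level was not tested.

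**Figure D2:**
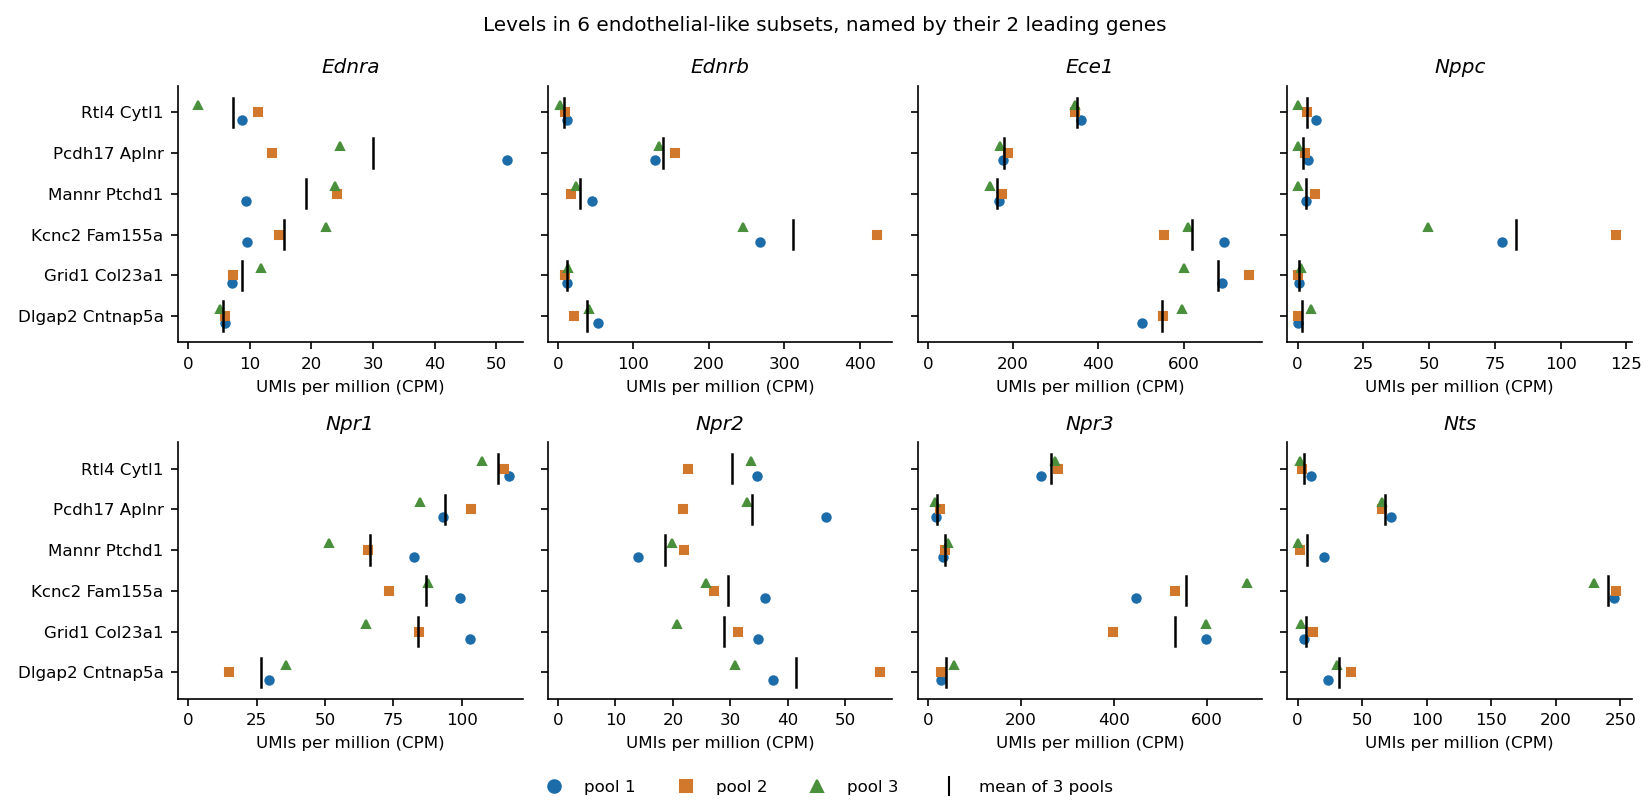
Levels of the 8 genes (x axes, CPM) in 6 endothelial-like subsets (y axis), with 1 marker per pool and a bar at the mean of the 3 pools. Nppc is at 49.7 to 121 CPM in Kcnc2 Fam155a nuclei and at means of 3.60 CPM or less elsewhere, while Ece1 and Npr1 are spread over all subsets.

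A subset mean can come from all nuclei or from a few. In the Kcnc2 Fam155a subset the 233 Nppc UMIs lay in 40 of 440 nuclei, 13 nuclei with at least 5 UMIs held 78.5% of them, and 1 nucleus had 40. These 13 nuclei came from all pools, 6, 5 and 2 of them from pools 1, 2 and 3. The 658 Nts UMIs lay in 66 nuclei, with 89.8% in 28 nuclei and up to 90 in 1 nucleus. The 850 Ednrb UMIs lay in 114 nuclei, with 84.8% in 46 nuclei, and the 1426 Npr3 UMIs lay in 168 nuclei, with 87.8% in 85. By contrast, the 240 Npr1 UMIs were spread over 162 nuclei with at most 4 in any, and Ece1 was detected in 346 of 440 nuclei. At this depth, most UMIs of Nppc, Nts, Ednrb and Npr3 in the subset thus came from minorities of its nuclei.

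The subset was clustered again on its own, an alternative added after the data were seen, again without the members. Tll1 Ednrb nuclei, 94 in all, had Ednrb at 1193, 1319 and 734 CPM and Npr3 at 1682, 1197 and 1339 CPM, with Nppc at 12.4, 23.0 and 0 CPM. Adam23 Dkk2 nuclei, 111 in all, had Nppc at 81.4, 335 and 125 CPM and Nts at 203, 330 and 1182 CPM, with Ednrb at 8.72, 9.86 and 0 CPM and Npr3 at 17.4, 19.7 and 0 CPM. Between these groups, the receptor genes Ednrb and Npr3 were higher in the first and Nppc in the second in all 3 pools. Nts had no such order, with 575, 334 and 47.6 CPM in Tll1 Ednrb nuclei. Ece1 was at 690 and 562 CPM on average in the 2 groups. Valve interstitial markers summed to 754, 445 and 367 CPM in Tll1 Ednrb and to 3342, 2129 and 2865 CPM in Adam23 Dkk2 nuclei. They ranged from 1048 to 4080 CPM in the remaining groups, and their part in these levels was not tested.

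The other groups were less regular. An Aqp8 Pdgfra group of 28 nuclei, with 12, 9 and 7 in pools 1, 2 and 3, is not described here. Pld5 Tbx5 nuclei, 45 in all, had Npr3 at 835, 1800 and 1686 CPM and Ednrb at 213, 133 and 236 CPM. Their Nppc was 370 CPM in pool 1, from 66 UMIs in 24 nuclei, and listed at 0 in pools 2 and 3, where they had 8 and 13 nuclei. In pool 1 these nuclei therefore exceeded Adam23 Dkk2 nuclei for Nppc. Col4a3 Tuft1 nuclei, 131 in all, had Npr3 at 328, 109 and 315 CPM, Nppc at 2.71, 104 and 91.1 CPM and Ednrb at 41.3 CPM on average. Cardiomyocyte markers in this group summed to 1370, 2014 and 5359 CPM, against 320 to 2051 CPM in the others, and their part was not tested. In Dgkb Ptprz1 nuclei, 31 in all, Ednrb was 882, 0 and 86.8 CPM and Nts 962, 607 and 0 CPM, so neither level held across pools. Prdm6, Synpo2, Kcnab1 and Carmn were also among the 10 leading genes of this group, its smooth muscle markers summed to 435, 861 and 1610 CPM against 83.7 to 522 CPM in the other groups, and its median depth was 9241 UMIs against 4452 to 6822. The part of this in its levels was not tested.

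**Figure D3:**
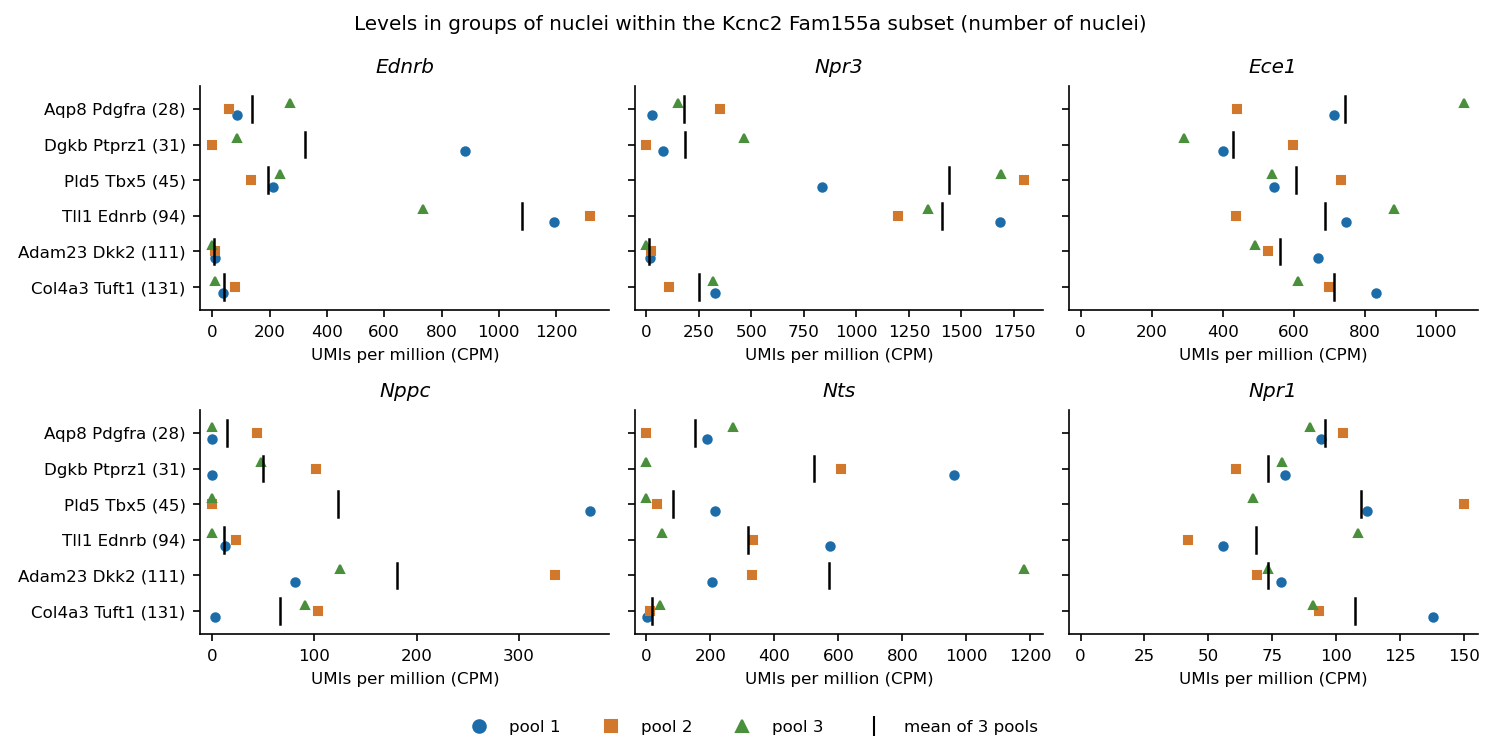
Levels of Ednrb, Npr3, Ece1, Nppc, Nts and Npr1 (x axes, CPM) in the groups of nuclei within the Kcnc2 Fam155a subset (y axis, with the number of nuclei), with 1 marker per pool and a bar at the mean of the 3 pools. Ednrb reaches 734 to 1319 CPM in Tll1 Ednrb nuclei and 0 to 9.86 CPM in Adam23 Dkk2 nuclei, which carry Nppc at 81.4 to 335 CPM.

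Detection in the same nucleus was read without this clustering. The nuclei were divided by 1 gene at full depth, and the second gene was read at 1000 UMIs per nucleus. In the Kcnc2 Fam155a subset an Npr3 UMI was found in 45.9%, 47.7% and 45.5% of nuclei with an Ednrb UMI at full depth (37, 44 and 33 nuclei) and in 14.0%, 10.8% and 19.6% of nuclei without one. Over all pools and without thinning, 72.8% of 114 nuclei with Ednrb had Npr3, against 26.1% of 326 nuclei without, whose median depths were 5982 and 4922.5 UMIs. In all other endothelial-like nuclei the order was the reverse in each pool, with Npr3 in 19.3% of 192 nuclei with Ednrb against 32.1% of 2108 without. Of the 192 nuclei, 40, 25 and 24 from pools 1, 2 and 3 were Pcdh17 Aplnr nuclei, the subset lowest in Npr3. The part of subset composition in this reversal was not tested. Nppc was found in 0%, 2.27% and 0% of nuclei with Ednrb and in 3.33%, 4.05% and 1.96% of those without, which are too few nuclei to order within a pool. Npr3 was found in 12.5% of nuclei with Nppc in each pool, against 21.1%, 26.5% and 26.8% of nuclei without. Nuclei with Nppc numbered only 16, 16 and 8, again too few to order within a pool. Nts beside Nppc was found in 37.5%, 6.25% and 12.5% of nuclei with Nppc, only 6 of 16, 1 of 16 and 1 of 8 nuclei, and in 5.85%, 12.7% and 5.51% without. Without thinning the share was higher with Nppc in every pool, at 50%, 37.5% and 12.5% against 11.7%, 18.6% and 9.45%. Nuclei with Nppc were deeper, at a median of 8543.5 UMIs against 5086.5.

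**Figure D4:**
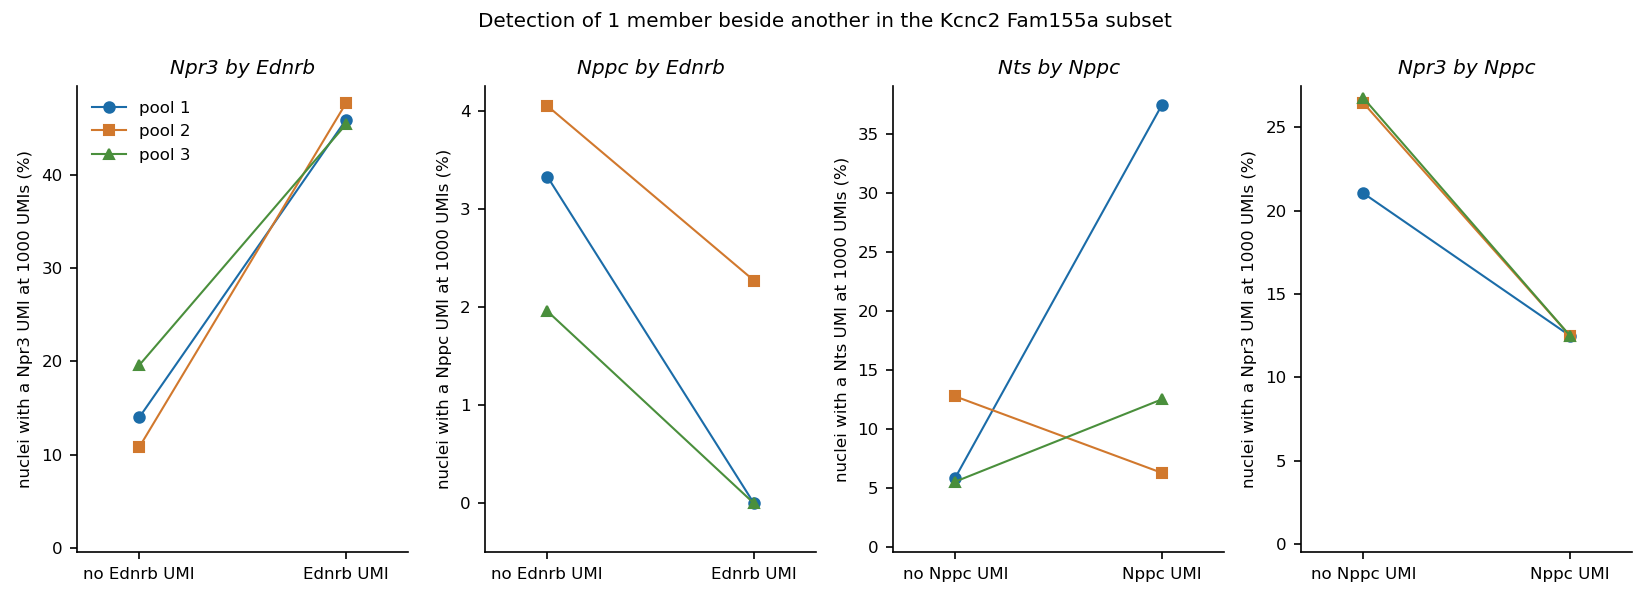
Share of Kcnc2 Fam155a nuclei with a UMI of 1 gene (y axes, percent, at 1000 UMIs per nucleus) among nuclei without and with a UMI of another gene at full depth (x axes), with 1 line per pool. Npr3 beside Ednrb is at 10.8% to 19.6% without Ednrb and at 45.5% to 47.7% with it, and the lines for Nts beside Nppc cross.

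To place the pattern of each gene among all genes, the Pearson correlation of log2(CPM + 5) was ranked over the 27 pool-by-class sums, for 8074 genes with a mean of at least 20 CPM. The sums of a pool share 1 library and the classes differ in depth, so the values describe likeness and carry no test. The most alike was Cldn5, a tight junction gene of endothelium, for Nts (r = 0.965), ahead of Rasip1 and Ccdc88c. Ece1 was most like Slc9a3r2 (0.945), Sema6a and Ctnnb1, Npr3 most like Adgrg6 (0.939), Fabp5 and Tuft1, and Npr1 had Sema3f and Sema6a among its nearest 3. Ednra was most like Rims1 (0.917), Cacna2d1 and Abcc9, which was a pericyte marker here, and Ednrb most like Arap3 (0.902), Stab1 and Slc7a7. Npr2 and Nppc had looser neighbours. Those of Npr2 were Nfib (0.850), Fip1l1 and Morc2a, and those of Nppc included Slc35b3 (0.858) and Glce.

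Over the 18 pool-by-subset sums of endothelial-like nuclei, with 7776 genes, the neighbours were others. Nppc was most like Wnt9b (r = 0.939) and Pthlh (0.918), the genes of a Wnt ligand and of parathyroid hormone-like hormone, and Crip1. Its mean was 3.60 CPM or less in every subset but Kcnc2 Fam155a, so this likeness rests mainly on the sums of that subset. Ece1 was most like Hand2os1 (0.967), Gata4 (0.943), a cardiac transcription factor gene, and Pla2g12a. Ednrb was most like Hecw2 (0.947), Ly6a and Sptbn1, and Npr3 most like Ppp3ca (0.923), the catalytic calcineurin subunit gene, Id2 and Arrb1. Nts was most like Cryab (0.934), Prnp and Ednrb (0.916), the only case in which 1 of the 8 genes was among the nearest 3 of another. Npr1 was most like St3gal4 (0.903), Trpm3 and Gypc, Ednra, at low levels, most like Myh11 (0.873), Col24a1 and Egfr, and Npr2 had no neighbour above Ubap2 (0.750), before Eif4e and Trmt2b.

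The ligands, enzymes and downstream genes of the same pathways were taken from a list of 32 names, of which 31 were in the tables and 22 passed the filter on low counts. They were tested with edgeR's quasi-likelihood test, each class against the mean of the other 8, with pool as a block and Benjamini-Hochberg adjustment over 14190 genes. In endothelial-like nuclei 11 of the 22 were higher and 6 lower, with a median log2 difference of 0.34. Of all genes 22.2% were higher and 15.7% lower, with a median of 0.03. Nos3, the endothelial nitric oxide synthase gene, was at 268 CPM and 4.46 higher on the log2 scale (SE 0.113, adjusted p = 7.20e-26). Edn1, the endothelin-1 precursor and so the substrate of Ece1, was at 257 ± 10.5 CPM and 3.77 higher (SE 0.123, adjusted p = 1.97e-19). The next class for Edn1 was lymphatic endothelial-like, at 56.2 ± 31.7 CPM. Pde2a, a phosphodiesterase stimulated by cyclic GMP, was 2.31 higher (SE 0.218, adjusted p = 1.30e-11). The soluble guanylate cyclase subunits Gucy1a1 and Gucy1b1, the cyclic GMP phosphodiesterase Pde5a and the kinase substrate Mrvi1 were lower, at -1.44, -1.39, -1.51 and -1.61.

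The mural classes, pericytes and smooth muscle, were tested in the same way. In pericyte-like nuclei, where Ednra was highest, 10 of the 22 were higher and 0 lower, against 8.15% and 4.02% of all genes. The list's median was 1.06 and that of all genes -0.10. Gucy1a2 was 4.03 higher (SE 0.113, adjusted p = 1.03e-26), Mrvi1 3.74, Gucy1b1 2.78 and Gucy1a1 2.76. The cyclic GMP-dependent kinase gene Prkg1 was 1.82 higher, at 9160 CPM, while Prkg2 (1.02) and Pde2a (-0.83) did not pass. In smooth muscle-like nuclei 11 were higher and 2 lower, against 22.3% higher and 20% lower among all genes, with Mrvi1 at 3.33, Gucy1a1 at 2.71, Pde5a at 2.50, Plcb1, a phospholipase of the endothelin receptor's path, at 2.26, and Pde3a at 1.76, while Pde9a (0.41) and Pde2a (-0.62) did not pass. Corin, the protease that activates atrial natriuretic peptide, was higher in smooth muscle-like (2.19), pericyte-like (1.85) and cardiomyocyte-like (2.37) nuclei, and by less in macrophage-like (0.87) and endothelial-like (0.56) nuclei.

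Cardiomyocyte-like nuclei had 6 of the 22 higher and 12 lower, against 34.2% and 32.6% of all genes. The higher ones included the natriuretic peptide genes Nppb, at 15.9 CPM and 2.73 higher (SE 0.228, adjusted p = 1.48e-13), and Nppa, at 67.0 CPM and 1.65 higher (SE 0.194, adjusted p = 2.82e-07). Nppa was also seen in every other class, from 16.2 to 71.9 CPM on average, and its mean of 71.9 ± 81.0 CPM in pericyte-like nuclei was carried by 1 pool at 165 CPM. Of the other classes, fibroblast-like nuclei had 8 higher and 5 lower (background 17.1% and 12.5%), with Mme, the gene of the peptidase neprilysin, at 2.10. Valve interstitial-like nuclei had 6 and 9 (19.2% and 14.2%), with Mme at 1.62 and Edn1 at -0.89. Mesothelial-like nuclei, the class with the most Npr3, had 2 and 17 (32.6% and 26.4%), with Corin at -3.54 and Mrvi1 at -3.95. Lymphatic endothelial-like nuclei had 4 and 9 (12.6% and 10.2%), with Nos3 at 3.52, Pde2a at 3.20 and Edn1 at 1.37 (SE 0.392, adjusted p = 0.0108).

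Macrophage-like nuclei had 8 higher and 2 lower (15.9% and 11.5%), in a class whose cardiomyocyte markers summed to 1589, 4182 and 6315 CPM, against 526 to 2844 CPM in the other classes apart from the cardiomyocyte-like one. Its smooth muscle markers summed to 1508, 1059 and 1511 CPM, against 376 to 773 CPM in endothelial-like, lymphatic endothelial-like, fibroblast-like, mesothelial-like and valve interstitial-like nuclei, and the higher genes included Mrvi1 (1.23), Gucy1a1 (0.62), Pde5a (0.59) and Plcb1 (0.58). The part of such RNA in the macrophage-like values was not tested. The count of 10 genes was 6 without the pool block and 4 to 9 without 1 of the pools, with the lowest value without pool 1. The 9 listed genes that did not pass the filter, Edn2, Edn3, Ece2, Kel, Ostn, Ntsr1, Ntsr2, Pcsk1 and Pcsk2, had means of at most 3.68 CPM in every class. These include both neurotensin receptor genes other than the sorting receptor Sort1 and the prohormone convertases that can cleave neurotensin's precursor. Sort1 was higher in cardiomyocyte-like (1.46), pericyte-like (1.27), fibroblast-like (0.36) and endothelial-like (0.33) nuclei and lower in mesothelial-like (-1.57) and lymphatic endothelial-like (-1.56) nuclei, the class highest in Nts.

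Within endothelial-like nuclei the Kcnc2 Fam155a subset was compared with the average of the 5 other subsets over 10305 genes, of which 16.3% were higher and 8.44% lower. Of 19 listed genes tested, 6 were higher and 2 lower, with a median of 0.18 beside 0.02 for all genes. Pde2a was 2.18 higher (SE 0.354, adjusted p = 6.39e-06) at 24.6 CPM, although Pcdh17 Aplnr nuclei had 140 CPM. Pde9a, a phosphodiesterase specific for cyclic GMP, was 1.54 higher (adjusted p = 6.27e-05) at 31.4 CPM, beside 35.8 CPM in Pcdh17 Aplnr nuclei, and Nos3 0.95 higher (adjusted p = 1.45e-10) at 400 ± 42.5 CPM, the highest of the 6 subsets. Furin, a convertase that cleaves the C-type natriuretic peptide precursor, was 0.76 higher (adjusted p = 1.43e-04) at 78.1 CPM, also the highest of the 6. Gnaq was 0.34 higher, at 969 CPM, although Rtl4 Cytl1 nuclei had 1153 CPM, and Gna11 was 0.47 higher, the last with an adjusted p of 0.0366 that ranged up to 0.255 under the alternatives. The phospholipases Plcb4 and Plcb1, which act below Gnaq, were lower at -1.16 and -0.58.

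Edn1 did not follow Ece1 across the subsets. It was at 436 CPM on average in Grid1 Col23a1, 326 in Rtl4 Cytl1, 233 in Mannr Ptchd1, 139 in Kcnc2 Fam155a, 98.3 in Dlgap2 Cntnap5a and 54.4 in Pcdh17 Aplnr nuclei. In the Kcnc2 Fam155a subset, with Ece1 at 619 CPM, its log2 difference was -0.40 with an adjusted p of 0.231, and -0.57 with an adjusted p of 0.00791 without pool 3. The 2 subsets with the most Ednrb thus had less Edn1 than the 2 with the least Ednrb, as a description of the means.

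The cell cycle was not used to choose the genes, so the 8 were tested between cycling and other nuclei. Cycling nuclei had at least 2 UMIs of 12 cell cycle genes at 1000 UMIs per nucleus, and only the endothelial-like class had enough of them in each pool, 106 of 2740 nuclei. Of 11483 genes, 7.18% were higher and 3.60% lower in cycling nuclei. Of the 8 genes, 0 were higher and 4 lower. Npr3 was at 67.7, 145 and 113 CPM in cycling nuclei and 311, 305 and 387 CPM in the others, 1.69 lower on the log2 scale (log2 difference -1.69, SE 0.198, adjusted p = 1.34e-05). Ednrb was at 33.8, 40.7 and 34.4 CPM against 75.3, 110 and 82.5 CPM (-1.28, SE 0.253, adjusted p = 0.00252), Ece1 at 229, 412 and 246 CPM against 475, 494 and 457 CPM (-0.74, SE 0.162, adjusted p = 0.00579), and Npr1 at 62.5, 40.7 and 29.5 CPM against 99.8, 85.9 and 82.2 CPM (-0.98, SE 0.248, adjusted p = 0.0167). The groups did not overlap for these 4 genes. Nppc (-1.34, adjusted p = 0.202), Nts (-0.60, 0.365), Npr2 (-0.57, 0.383) and Ednra (0.48, 0.622) did not pass, with 6 Nppc UMIs in all cycling nuclei.

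Cycling nuclei were unevenly placed among subsets, with 46 of 51 nuclei of a Kif23 Top2a cluster and 24 of 247 Pcdh17 Aplnr nuclei but 7 of 440 Kcnc2 Fam155a, 6 of 756 Rtl4 Cytl1 and 3 of 821 Grid1 Col23a1 nuclei. The last 3 subsets had the most Npr3, and the part of this uneven placement in the lower Npr3, Ece1 and Npr1 levels was not tested. Within the Pcdh17 Aplnr subset, summed over the pools and read after the data were seen, Ece1 was at 89.1 CPM in cycling nuclei, from 19 UMIs, against 193 CPM in the others, and Npr1 at 28.1 CPM, from 6 UMIs, against 104 CPM. Npr3 is lowest in this subset, with 5 UMIs in its cycling nuclei, and cannot be compared there. In the 3 subsets with the most Npr3 its order differed, on 9 to 12 UMIs in cycling nuclei. Cycling nuclei had 859 against 527 CPM in Grid1 Col23a1, 314 against 257 CPM in Rtl4 Cytl1 and 144 against 535 CPM in Kcnc2 Fam155a. Ece1 was higher in cycling Rtl4 Cytl1 nuclei (471 against 352 CPM) and lower in those of every other cluster. Npr1 was higher in cycling Rtl4 Cytl1 (131 against 115 CPM) and lower in cycling Kcnc2 Fam155a nuclei (43.1 against 89.6 CPM). These rest on 5 and 3 UMIs. With the Kcnc2 Fam155a subset left out, which was added after the data were seen, Npr3 (-1.49, adjusted p = 0.0322), Ece1 (-0.79, 0.00337) and Npr1 (-0.97, 0.0167) passed the test again as lower, while Ednrb was at 39.9 CPM in cycling and 31.4 CPM in other nuclei (0.29, adjusted p = 0.659). The lower Ednrb level of cycling nuclei was thus not seen in the sum of the other clusters. Single clusters differed. Ednrb was at 79.7 CPM in cycling Pcdh17 Aplnr nuclei, from 17 UMIs, against 145 CPM in the others. It was also lower in cycling Dlgap2 Cntnap5a, Grid1 Col23a1 and Rtl4 Cytl1 nuclei, each at 0 CPM. It was higher in cycling Mannr Ptchd1 (72.6 against 29.6 CPM, from 5 UMIs) and Kif23 Top2a nuclei (21.2 against 0 CPM). The part of uneven placement in the summed Ednrb level was not tested. With doublets kept, Ednrb was at -0.67 with an adjusted p of 0.0929, and with DESeq2 Npr1 was at -1.02 with an adjusted p of 0.0965. Npr3 alone of the 4 kept its call without each pool in turn, Npr1 lost it without any 1 pool, and the count fell to 1 without pool 1.

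**Figure D5:**
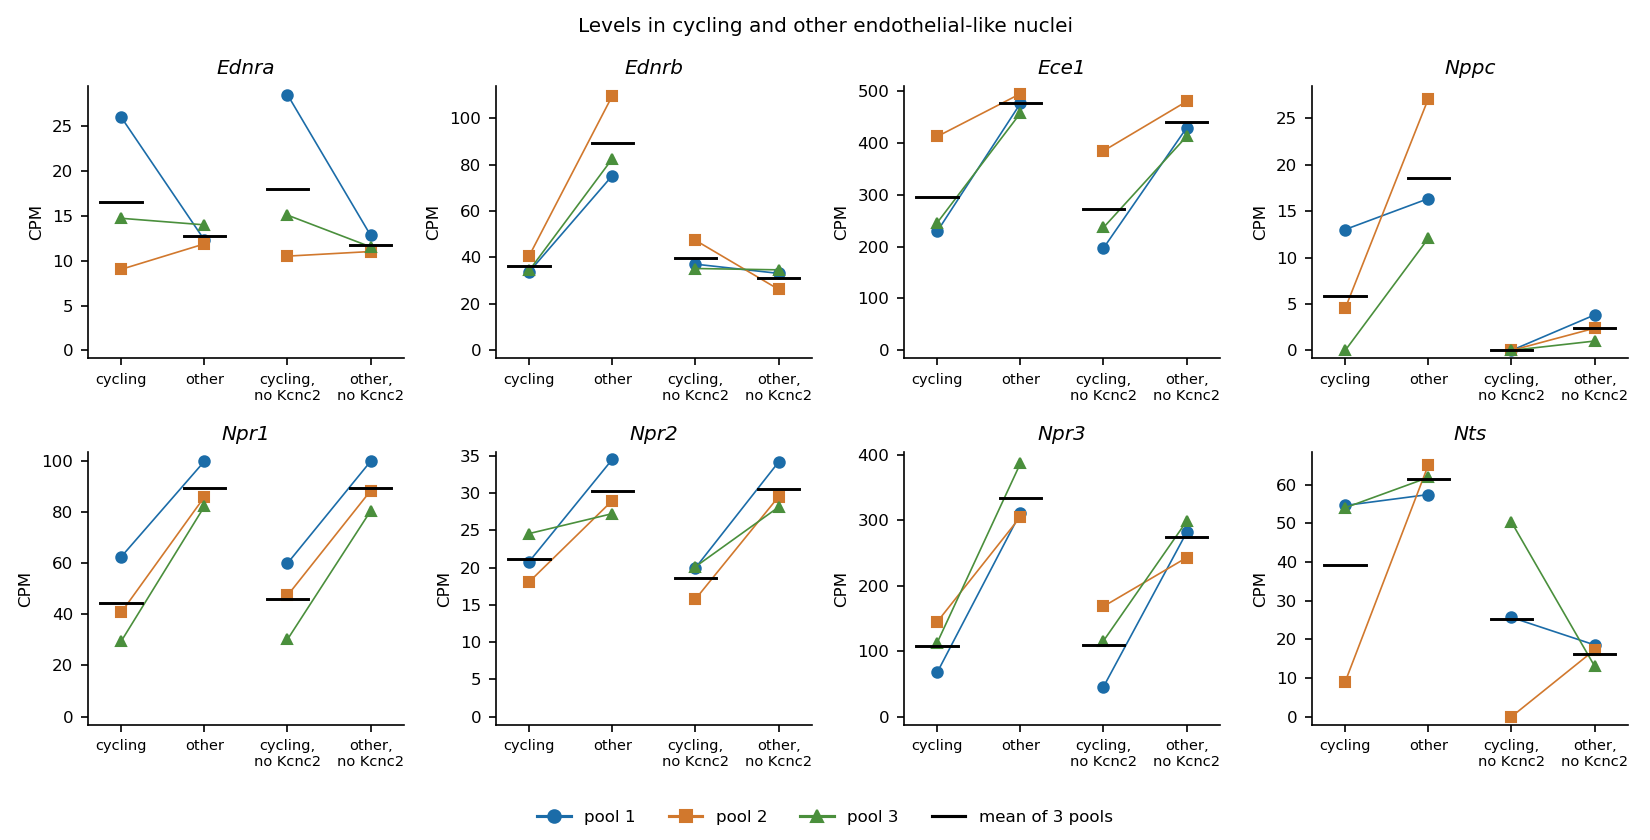
Levels of the 8 genes (y axes, CPM) in cycling and other nuclei of the endothelial-like class, with and without the Kcnc2 Fam155a subset (x axes), with 1 line per pool and a bar at the mean of the 3 pools. Npr3 is at 67.7 to 145 CPM in cycling and 305 to 387 CPM in other nuclei, and the Ednrb gap of 36.3 against 89.1 CPM on average is not seen with that subset left out, at 39.9 against 31.4 CPM.

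Pools hold pups of unstated sex, and nuclei were called female or male from Xist and Y-linked UMIs within 6 classes. The members passing the count filter numbered 8 in endothelial-like, 5 in smooth muscle-like, 4 in fibroblast-like, 4 in valve interstitial-like and 3 each in cardiomyocyte-like and mesothelial-like nuclei. 0 of these passed edgeR's test between the sexes at an adjusted p of 0.05, and 0 passed DESeq2's. In either direction 0.0422% of genes passed in endothelial-like, 0.0433% in smooth muscle-like, 0.0520% in fibroblast-like, 0.0554% in mesothelial-like, 0.132% in valve interstitial-like and 0.136% in cardiomyocyte-like nuclei. At an unadjusted p of 0.05, 1 passed edgeR's test, Ednra in valve interstitial-like nuclei, with a log2 difference of 0.52 (SE 0.202, adjusted p = 0.839), where 458 of all 9070 genes passed at that level.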

How the data were processed

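The deposited tables hold unnormalized UMI counts, and their headers name Cell Ranger 7.1.0. The submitters' processing notes list Cell Ranger 7.0.1 and 7.1.0 and the build GRCm39. The genes and lists were chosen with earlier results of these data known. Nuclei with at least 1000 UMIs, 300 genes and at most 5% mitochondrial UMIs were kept. Scrublet's own threshold marked 0 nuclei, so the top scores were removed at 0.8% per 1000 deposited nuclei, 889 in all. Scanpy 1.11.5 and leidenalg 0.10.2 clustered 2000 variable genes in 30 components at resolution 1, into 28 clusters, without pool integration. A class needed 3 of its markers in at least 10% of nuclei and 2-fold up. It kept the word "like", and classes needed 20 nuclei per pool to be compared. For shares, nuclei were thinned to 1000 UMIs. Counts summed per pool and group were tested with edgeR 4.0.16 in R 4.3.3 (quasi-likelihood, TMM, filterByExpr), with pool as a block, because all sums of a pool come from 1 library, and a threshold of 0.05 after Benjamini-Hochberg adjustment. Nuclei were called female from 2 or more Xist UMIs without a Y-linked UMI, and male from a Y-linked UMI without Xist. The text names the 8 genes, any listed pathway gene, the 3 genes most like each member and the 2 leading genes of a subset, and some of these are not reported here. Scripts were tested on simulated counts. Alternatives were other size factors, DESeq2 1.42.0, no filter, no pool block, doublets kept, 2000 UMIs, other resolutions, no thinning, fewer pools, other mitochondrial limits and the omission of 1 subset.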

Additional observations from a re-analysis of the deposited data

Results flagged for a closer look

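Ednra differed in sign between the sexes in 2 classes, without passing the test in either. On the log2(CPM + 5) scale, which shrinks differences at such low levels, its difference between female and male nuclei averaged -0.28 in endothelial-like nuclei, where it was lower in female nuclei of every pool (5.74 against 8.07 CPM), and 0.19 in fibroblast-like nuclei, where it was higher in every pool (150 against 131 CPM). The difference between the classes was not tested.

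Ednrb was at 421 CPM in a small melanocyte-like group of 70 nuclei that was too small to enter the comparisons. Its pools ranged from 242 to 681 CPM, and 46 of the 70 nuclei had an Ednrb UMI, 121 UMIs in all. Endothelial-like nuclei had 86.1 CPM.

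Nppc was at 21.1, 18.3 and 24.1 CPM (mean 21.2) in the 3848 nuclei with at least 1000 UMIs that were left out for their mitochondrial share, against 4.03, 6.87 and 2.02 CPM in the analysed nuclei, a ratio of 4.91. All nuclei over the mitochondrial limit, smaller ones included, held 45.4% of all Nppc UMIs and 41.7% of all Nts UMIs, against 15.2% of the UMIs of all genes. In the 3848 nuclei the other members were at 0.359 to 3.21 times their analysed level, with Ednra lowest and Nts highest.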

How the results depend on the processing

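The number of the 8 genes highest in the endothelial-like class, 4, was 2 to 3 without 1 of the pools, and 2 without pool 3. The number highest in the Kcnc2 Fam155a subset, also 4, was 3 to 4. The macrophage-like count of 10 pathway genes was 6 with no replicate block, the fit that ignores that all sums of a pool come from 1 library, and 4 to 9 without 1 of the pools. The block changed no other count by over 1.5 times, and its omission ended 1 call of a named gene, Gna11 in the Kcnc2 Fam155a subset (adjusted p = 0.128 without it, edgeR). The cycling count of 4 was 1 to 3 without 1 of the pools, and 3 with DESeq2 and with doublets kept. The log2 difference of Ednrb by cycling was 0.29 with the Kcnc2 Fam155a subset left out, against -1.28; that subset held 69.3% of the endothelial-like Ednrb UMIs and 7 of the 106 cycling nuclei. Among test values of named genes under the other settings, 356 of 370 kept direction and side of the threshold, 13 lost the call and 1 gained it. Of the levels, 4 of 24 moved by over 1 SD with a mitochondrial limit of 10% and 5 of 24 with none, the latter giving 9.17 CPM for Nppc and 30.5 CPM for Nts in the other endothelial-like nuclei, 209 CPM for Nts and 698 CPM for Ece1 in the Kcnc2 Fam155a subset and 526 CPM for Ece1 in the endothelial-like class; with doublets kept 1 moved, Ednra in the other endothelial-like nuclei, to 13.9 CPM. Nppc rests on 294 analysed UMIs, and with 3 pools no level below 3 UMIs per sum can be ordered.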
